A study of Homo sapiens with 4 samples.

Results

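The genes described here were chosen by name: every gene whose symbol in the platform annotation begins with SLC1A, SLC3A, SLC6A, SLC7A, SLC36A, SLC38A or SLC43A, the prefixes of the solute carrier families that move amino acids across membranes. The rule found 2 genes among the 14884 genes measured. They were SLC38A12, a protein-coding gene on chromosome 17 also known as TMEM104, and SLC7A11-AS1, a long non-coding RNA gene on chromosome 4. RefSeq (assembly GRCh38.p14) holds 82 symbols with these prefixes, 61 of them protein-coding genes. The other carriers of these families, among them the glutamine carrier gene SLC1A5, the leucine exchanger gene SLC7A5, its heavy chain gene SLC3A2 and the cystine exchanger gene SLC7A11, were not analysed here. The label of an amino acid transporter group therefore rests on 1 coding gene, and SLC7A11-AS1 carries the prefix as the antisense partner of a carrier gene without encoding a carrier. The values below describe SLC38A12 and SLC7A11-AS1 and cannot stand for the families.

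RNA was profiled on 4 Affymetrix whole-transcript arrays. The cells were LS411N-5FU-R, a line made resistant to 5-fluorouracil from the human colon carcinoma line LS411N. All 4 samples were this resistant line, grown for 3 days in RPMI medium with serum. In 2 of them verticillin A, a fungal metabolite, was left out (control, 0 nM), and in the other 2 it was present at 50 nM. Separate cultures within a group are not recorded in the labels, and the spread behind every p-value is therefore that of these samples alone and could be technical. Of 15 listed markers of colon epithelial lines 11 were measured, and the adhesion molecule gene EPCAM (log2 level 11.11 ± 0.03, SD, n = 2), the claudin gene CLDN7 (10.94 ± 0.04) and the keratin gene KRT18 (10.37 ± 0.11) had these levels in control cells. Another keratin gene, KRT8, was lower at 6.91 ± 0.07. The intestinal transcription factor gene CDX2 was at 5.19 ± 0.001 and the carcinoembryonic antigen gene CEACAM5 at 3.55 ± 0.001. KRT20, CDX1 and CEACAM6 had control means of 4.61, 4.06 and 3.29. Of the 11, KRT19 rose (log2 change 0.44, limma adjusted p = 0.0493) and VIL1, which encodes villin, fell (-0.62, adjusted p = 0.0167). The 7 measured markers of leukocytes, fibroblasts and endothelium had control means of 3.42 to 4.58, and 0 of them passed the test below. The control means of CEACAM5 and CDX1 lay within this range and that of CEACAM6 below it.

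Amino acid carriers bring in the substrates of protein synthesis, and several work as exchangers that release one amino acid to take up another. Cells adjust their transcripts to supply: when amino acids run short, the kinase GCN2 favours translation of ATF4, a transcription factor that raises genes for amino acid uptake and synthesis. The SLC38 family holds sodium-coupled carriers of small neutral amino acids such as glutamine and alanine, and SLC38A12 has been placed in that family under its current name. SLC7A11, whose RefSeq span overlaps that of SLC7A11-AS1, encodes the light chain of the exchanger that takes up cystine, a precursor of glutathione, in return for glutamate.

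The start of SLC38A12 lies close to that of NAT9, an acetyltransferase gene read in the opposite direction. The stretch between the 2 RefSeq start sites is shown because it holds the upstream sequence that this gene shares with its neighbour. It runs over 153 bases, chr17:74776346-74776498 of GRCh38.p14 on the plus strand, and 75.2% of them are G or C. Capitals mark matches to GCATGCGC, the core of the motif of nuclear respiratory factor 1 (NRF1, a different protein from the stress factor NRF2), and to CCAAT, the box bound by NF-Y, on either strand.
SLC38A12 upstream: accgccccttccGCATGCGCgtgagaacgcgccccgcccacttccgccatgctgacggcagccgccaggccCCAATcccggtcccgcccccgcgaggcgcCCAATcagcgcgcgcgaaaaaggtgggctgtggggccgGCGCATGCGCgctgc
Both motifs were searched after the sequence had been read. The SLC38A12 window of 300 bases, which also takes in bases on either side of the printed stretch, held 3 matches to GCATGCGC, of which a pair on opposite strands overlap, and 2 to CCAAT. Of 35116 RefSeq promoter windows of that length, 3.05% held GCATGCGC and 34.6% held CCAAT. The window held 0 matches to TGATGNAA (the composite element that ATF4 binds, found in 3.62% of windows), 0 to TGACNNNGC (the antioxidant response element bound by NRF2, in 13.3%) and 0 to CACGTG (the E-box, in 7.26%). These matches describe letters and not binding. No promoter window was used for SLC7A11-AS1.

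SLC38A12 had higher values with verticillin A, but its difference did not pass the test. Its deposited log2 values were 8.13 and 8.38 on the control arrays and 8.60 and 8.62 on the verticillin A arrays. Both treated arrays lay above both control arrays, and the gap between the groups (0.23) was smaller than the difference between the 2 control arrays (0.25). The 2 treated arrays differed by only 0.02. The mean was 8.25 ± 0.18 without and 8.61 ± 0.01 with verticillin A (SD, n = 2 per group), a log2 change of 0.36 ± 0.10 (SE). On the linear scale this was 1.28-fold, with a 95% confidence interval of 1.08-fold to 1.53-fold from limma, a linear model that borrows the spread from all genes. The unadjusted p in limma was 0.0137, and the p after Benjamini-Hochberg adjustment over all 14884 genes ("adjusted p") was 0.0891, above the threshold of 0.05.

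SLC7A11-AS1 had lower values with verticillin A and did not pass either. It read 4.62 and 4.49 on the control arrays and 4.34 and 4.33 on the treated arrays, so both treated arrays lay below both control arrays. The gap between the groups was 0.15, against 0.12 between the control arrays and 0.01 between the treated arrays. The means were 4.56 ± 0.09 and 4.34 ± 0.01 (SD, n = 2 per group), a log2 change of -0.22 ± 0.08 (SE), or 1.16-fold lower (95% confidence interval 1.02-fold to 1.33-fold). The limma p was 0.0307 unadjusted and 0.141 adjusted. These values are low, and without detection calls they cannot be told from background. Whether the RNA itself changed cannot be read from them, and any change could be understated. The sources used here do not say whether the probes separate this RNA from transcripts of the overlapping gene SLC7A11.

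**Figure D1:**
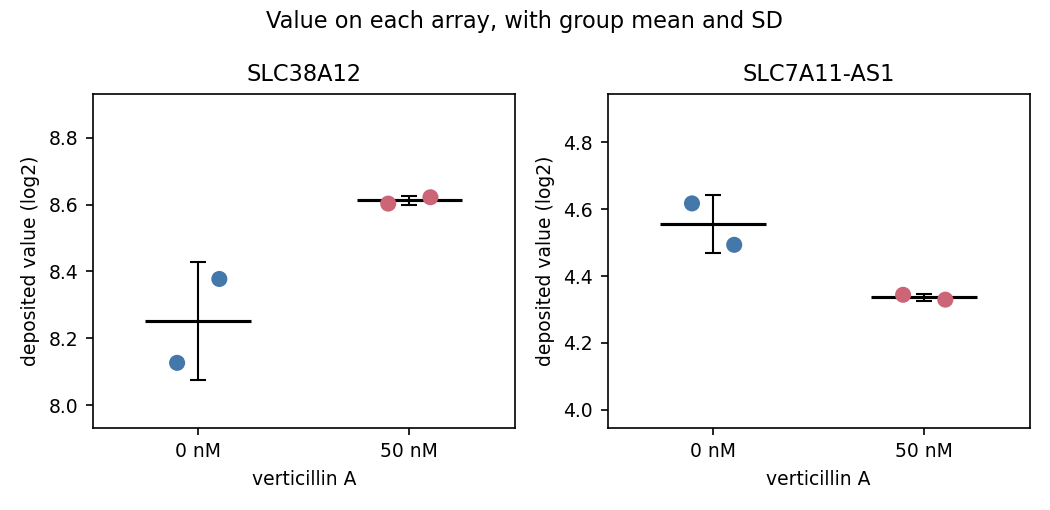
Deposited log2 value (vertical axis, arbitrary log2 units, 2 panels of equal span) of SLC38A12 and SLC7A11-AS1 on each control (0 nM, blue) and verticillin A (50 nM, red) array, with a horizontal line at the group mean and bars of 1 SD. The treated arrays lie close together, at 8.60 and 8.62 for SLC38A12 and 4.34 and 4.33 for SLC7A11-AS1, while the control arrays are spread more widely.

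Of the 2 genes, 0 were called by limma at an adjusted p below 0.05, while 8.65% of all genes were called, 3.55% as higher and 5.1% as lower. Both had an unadjusted p below 0.05, which 26.7% of all genes had. In both genes the treated arrays did not overlap the control arrays, an arrangement found in 54.8% of all genes (above in 25.7%, below in 29.1%). Absolute changes larger than that of SLC38A12 were found in 11.1% of all genes, and larger than that of SLC7A11-AS1 in 26.6%.

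The call for SLC38A12 depended on the model, while its direction did not change in the 11 alternatives run. For both genes several alternatives kept the same log2 change by construction. Leaving out 1 array could not reverse a direction either, because the groups did not overlap. SLC38A12 passed when the dimmest 50% of genes were left out (limma adjusted p = 0.0316) and when the prior spread was allowed to follow the signal level (adjusted p = 0.0238). Over the 11 alternatives its adjusted p ran from 0.0238 to 0.27. The choice of control array moved its value: without control replicate 1, the lower of the 2, the log2 change was 0.23 ± 0.08 (SE, limma adjusted p = 0.174), and without control replicate 2 it was 0.49 ± 0.08 (adjusted p = 0.0878). SLC7A11-AS1 kept its direction and stayed above the threshold in all 10 alternatives that included it, with log2 changes of -0.28 to -0.16 and limma adjusted p of 0.141 to 0.4. The filter on dim genes removed it.

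**Figure D2:**
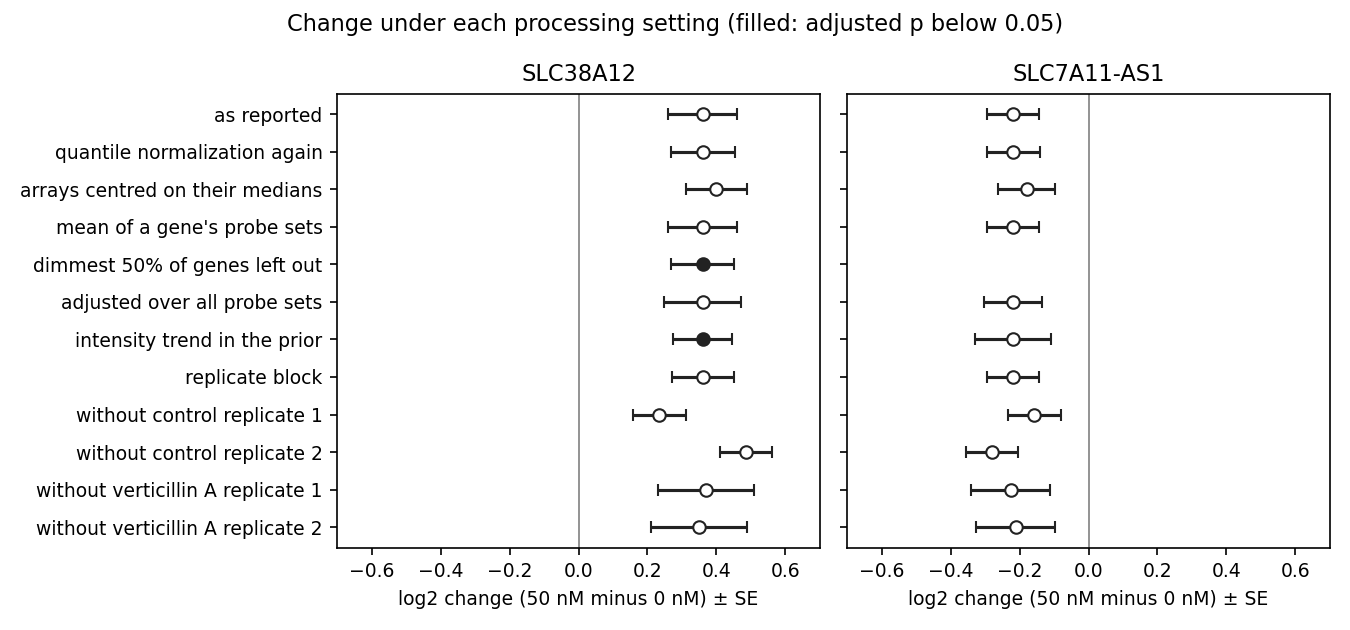
Log2 change (50 nM minus 0 nM verticillin A, horizontal axis) with 1 SE for SLC38A12 and SLC7A11-AS1 as reported and under each alternative (vertical axis). Filled points have a limma adjusted p below 0.05, and these are SLC38A12 with the dimmest 50% of genes left out and with an intensity trend in the prior; SLC7A11-AS1 has no point under the filter on dim genes.

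The wider machinery of amino acid supply was read from 6 lists, of which 73 of 135 genes were measured. Together 5 were higher and 11 lower (6.85% and 15.1%, against 3.55% and 5.1% of all genes). Their median log2 change was -0.01, equal to that of all genes to 2 decimals. The listed genes were not matched to all genes for signal level, and the shares of all genes take in many dim genes. With the dimmest 50% of genes left out, more of all genes were called (1070 higher and 1329 lower) although fewer were tested. In the lists 11 were then higher and 18 lower. In the fit over all genes, the 11 lower genes were mostly from the list of ATF4 branch factors and amino acid response genes. In that list 7 of 14 fell and 0 rose (median -0.45). The lists were chosen with earlier results of these data known, so this share is not independent evidence. The pseudokinase gene TRIB3 was 3.99-fold lower, and the stress genes DDIT4 and DDIT3 and the asparagine synthetase gene ASNS fell by 1.82 ± 0.10, 1.80 ± 0.08 and 1.41 ± 0.07 (log2 change ± SE); these 4 had the largest changes of the 7. ATF4 itself, with a smaller change and named after its values were seen, fell from 10.13 ± 0.05 to 9.66 ± 0.01 (SD, n = 2 per group, limma adjusted p = 0.0227). Of 27 listed amino acid carriers of other families only 6 were measured, too few to speak for the rest. Of these 6, 0 passed in limma and 0 had an unadjusted p below 0.05, against 8.65% and 26.7% of all genes. Examples were the lysosomal exporter of cationic amino acids, SLC66A1 (log2 change 0.16 ± 0.11), and the mitochondrial ornithine carrier SLC25A15 (-0.12 ± 0.10).

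Of 24 genes of amino acid sensing upstream of the growth kinase complex mTORC1, 1 rose and 2 fell (median 0.07), shares of 4.17% and 8.33% that were near the 3.55% and 5.1% of all genes. The sestrin gene SESN1, whose product restrains mTORC1, rose by 0.56 ± 0.07, whereas SESN3 of the same family fell by 1.05 ± 0.11 and ITFG2 by 0.39 ± 0.08. Another sestrin gene, SESN2, was counted in the ATF4 list and not among these 24. It was also lower (log2 change -1.25 ± 0.08, limma adjusted p = 0.00497) and is named after its values were seen. In the list of glutathione synthesis from cystine, 11 of 14 genes were measured. Of these 11, 3 rose and 0 fell, with a median of -0.10 that lay on the other side of 0. Those that rose, thioredoxin (TXN, 0.58 ± 0.07), thioredoxin reductase (TXNRD1, 0.52 ± 0.07) and glutathione reductase (GSR, 0.41 ± 0.07), keep thiols reduced and do not make glutathione. The glutathione synthetase gene GSS, named after its values were seen, was not called (log2 change -0.24 ± 0.07, limma adjusted p = 0.0983). Of 10 genes of glutamine, arginine and branched-chain amino acid use, only the argininosuccinate synthase gene ASS1 passed, 1.96-fold lower (9.63 ± 0.09 against 8.66 ± 0.01, SD, n = 2 per group, limma adjusted p = 0.00797). Of 8 trafficking partners and regulators, CD44, whose variant form binds the cystine exchanger, fell by 0.41 ± 0.07 and ARHGAP11A rose by 0.33 ± 0.07. With either control replicate 1 or control replicate 2 left out, 0 of these 73 genes passed in limma and 0 of all genes did (3715 and 3528 of all genes had an unadjusted p below 0.05).

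**Figure D3:**
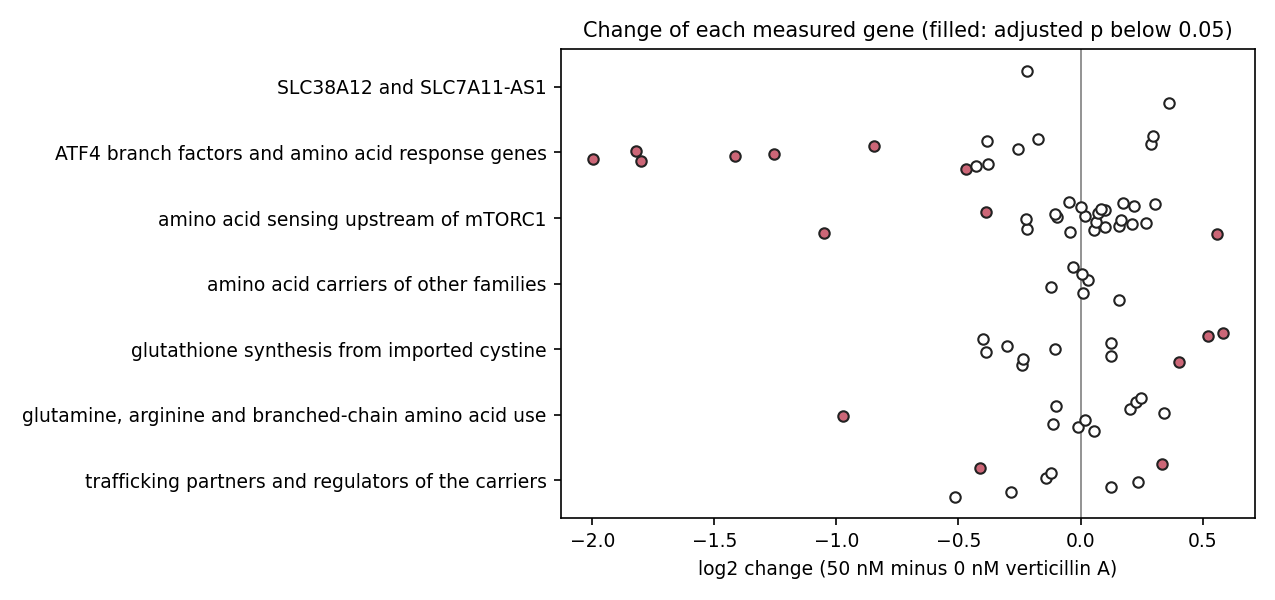
Log2 change (50 nM minus 0 nM verticillin A, horizontal axis) of SLC38A12 and SLC7A11-AS1 and of each measured gene of the 6 lists (rows; 1 point per gene, spread vertically for legibility). Filled points have a limma adjusted p below 0.05; the row of SLC38A12 and SLC7A11-AS1 has 0 filled points and that of ATF4 branch genes has 7, all to the left of 0.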

How the data were processed

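The values the authors deposited are log2 expression levels, 1 for each probe set on each array, from GCRMA per the submitters' processing notes (its defaults are background correction, quantile normalization and probe summary). The sources used here give no version, annotation, build or filter. The log2 scale was read from the range of values (2.60 to 14.47). The table held 53617 probe sets, of which the platform annotation used here names 1 gene for 16098 (0 name several, 37519 are unnamed). All 16098 matched RefSeq gene identifiers. A gene was represented by its probe set with the highest mean, which left 14884 genes; SLC38A12 and SLC7A11-AS1 had 1 probe set each.

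limma 3.58.1 in R 4.3.3 (lmFit, eBayes, constant prior, two-sided) compared the treatments on all 4 arrays, unfiltered, on 2 residual and 3.43 prior degrees of freedom, with Benjamini-Hochberg adjustment over all genes. The fit was tested on simulated data. The number of arrays limits the precision. Alternatives were a second quantile normalization, median centring, averaged probe sets, a filter on dim genes, adjustment over all probe sets, an intensity trend, a replicate block and leaving out each array. Genes and lists were chosen with earlier results of these data known. The rule for named genes gives every gene with a listed prefix, and per list up to 4 called genes with the largest change or up to 2 as values where none passed; some of these are left out of the text.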

Additional observations from a re-analysis of the deposited data

How the results depend on the processing

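SLC38A12 and SLC7A11-AS1 kept their directions in every alternative that included them, though most of these alternatives could not have reversed them. Of these genes 1 was called higher, SLC38A12, with the dimmest 50% of genes left out and 1 with an intensity trend, and 0 under each other alternative; 0 were called lower. Over all genes 528 were called higher and 759 lower. The counts were 1070 and 1329 with the dimmest 50% left out, 1067 and 1361 with an intensity trend, and 6 and 12 when adjusted over all 53617 probe sets. Centring on medians gave 750 and 668, so that fewer than before were lower. Among the genes of the 6 lists, 5 higher and 11 lower, the counts were 11 and 18 with the dimmest 50% left out, 10 and 17 with an intensity trend, and 0 and 4 when adjusted over all probe sets. Leaving out 1 array gave 0 to 52 higher and 0 to 105 lower over all genes, 0 higher and 0 to 8 lower in the lists, and 0 of SLC38A12 and SLC7A11-AS1. Such fits have 1 fewer sample, and the lone array of a group is assumed to vary like the other group. The causes of the other shifts were not tested.

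The labels number the replicates without saying whether same-numbered arrays were paired. Deviations of same-numbered arrays correlated at 0.012 over genes. This shows little shared deviation but cannot tell whether the samples were paired. With the replicate number as a block, 228 genes were higher and 364 lower, 3 and 8 of the listed genes, and 0 of SLC38A12 and SLC7A11-AS1 (limma adjusted p = 0.102 and 0.173).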
